A study of Mus musculus with 12 samples.

Results

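The measurements described here are the ribosome footprints of normal mouse liver set against the RNA of the same lysates. Ribosome-protected fragments (RPFs) are the short pieces of mRNA that a translating ribosome shields from nuclease, and the input is RNA from the undigested share of the lysate. Both were sequenced from the livers of 3 wild-type (WT) mice, each giving 1 input and 1 RPF library, so that 6 of the 12 libraries of the series belong here. The other 6 libraries come from 3 littermates lacking Mettl5, the methyltransferase of a single adenosine in 18S rRNA. In these knockout (KO) mice exon 2, floxed in ES cells of mixed C57bl/6 and 129S6 origin, was removed in the whole body by CMV-Cre, and the line was backcrossed to C57bl/6. The WT mice carry no such deletion. Age and sex are not given for single mice, and the study used both sexes. Livers were lysed in cycloheximide, which holds elongating cytosolic ribosomes in place, in both genotypes. Genes were members when the mean over the 3 WT mice was at least 10 normalized reads in input and in RPF, which held for 8886 of the 10607 genes in the table. Of the 1721 genes left out, 302 were under the minimum in input alone, 748 in RPF alone and 671 in both. The nearest genes inside were Rwdd3 and Phtf2, at 10.0048 and 10.0052 in RPF, and the nearest outside were Tcf3 and Ccdc149, at 9.98 and 9.99.

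Translation starts when a small ribosomal subunit, loaded with initiation factors, scans from the cap through the 5′ untranslated region (UTR) to a start codon. The number of ribosomes on an mRNA therefore reflects how often scanning subunits start, and how fast ribosomes then move. Translation efficiency (TE) is the RPF signal of a gene divided by its input signal. Hepatocytes, the main cell of the liver, secrete most plasma proteins, run the urea cycle, gluconeogenesis and ketogenesis, and hold the enzymes of bile acid synthesis and detoxification. Known cases of translational control include mRNAs with upstream open reading frames (uORFs), which capture scanning ribosomes, mRNAs with a terminal oligopyrimidine (TOP) tract, which encode the ribosome itself, and ferritin mRNAs with an iron-responsive element.

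The deposited values are reads divided by 1 factor per library, with no gene length. TE was computed in each mouse as log2(RPF + 1) minus log2(input + 1) and set relative to the median gene of that mouse, so 0 is the median gene and 1 is 2-fold above it. Where a value is given per length, RPF was divided by coding length and input by the length of 1 transcript, and where it is given per exon length, input was divided by the summed exons of the gene. Before centring, the median gene lay at 0.10, 0.08 and 0.08 in the 3 mice. WT libraries held 2398804 to 3022038 input reads and 5823808 to 9184242 RPF reads over the genes of the table. Mettl5 itself had 38.5, 28.2 and 15.7 normalized reads in WT input against 8.55, 9.30 and 8.0 in KO input, and 58.4, 47.8 and 53.1 in WT RPF against 8.34, 5.53 and 9.56 in KO RPF, with no overlap of the genotypes in either assay. Of the 10 hepatocyte markers all were members, and they took 12.9% ± 1.25 (SD, n = 3) of input reads with Lars2 left out of the sum. The markers of each other liver or blood cell type took at most 0.0602% ± 0.0058. Because the tissue was homogenized whole, fewer cells of a type and less RNA per cell cannot be told apart. p-values and SEs come from limma, which draws each gene's spread between these 3 mice toward a trend over all genes. An SE can therefore differ from that of the gene's own 3 values.

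Lars2, the mitochondrial leucyl-tRNA synthetase (ENSMUSG00000035202, mm10 chr9:123366927-123462666, plus strand), stood apart from every other member and is set aside as a suspected rRNA-like artifact. Its input values were 1387912, 960842 and 1101668 normalized reads, 24.2% to 31.5% of the input sum of a library. Its RPF values were 53.1, 52.0 and 51.1. The resulting log2 TE was −14.47 ± 0.08 (SE, n = 3; limma, adjusted p = 1.7e-26) in WT and −14.76 in KO. All windows of 28 bases in its coding sequence were unique in the genome, and none of its exons overlapped another gene on its strand. Its 3894-base transcript shares a run of 52 bases, at positions 3278 to 3329 in the 3′ UTR after the coding end at 2905, with the noncoding RNA Gm15564, which had 64353 to 81147 input counts. The 30 bases at transcript positions 3289 to 3318, inside that run, from mm10 chr9:123462059-123462088, are shown as they read in Lars2. Gm15564 was searched on both strands, and the strand that matched was not recorded.
Lars2 and Gm15564: gcgttggattgttcacccactaatagggaa
Of 8878 members searched, 49 held any run of 20 bases from either strand of the 5 most abundant noncoding RNAs of the input libraries. Whether reads of such RNAs make up the Lars2 value was not tested.

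TE differed between genes by far more than between mice. Its SD over genes was 1.10 and was 1.09 without Lars2, against a median SD between mice of 0.27. The 10th and 90th percentiles were −1.47 and 1.18, a 6.27-fold range, and the quartiles were −0.73 and 0.65. Across genes, which are not independent replicates, TE in pairs of mice had a Pearson r of 0.86, 0.86 and 0.89 over 8886 genes. These values share the library scaling and the reference gene. A gene was called above or below the median gene when limma gave an adjusted p under 0.05 and the sign was the same in 3 mice. By that rule 2835 genes (31.9%) lay above and 2792 (31.4%) below, 1264 (14.2%) at least 2-fold above and 1627 (18.3%) at least 2-fold below. At an unadjusted p under 0.05 there were 5956 genes. Per length, 2901 of 8878 genes (32.7%) lay above and 2739 (30.9%) below. RPFs were more concentrated in few genes than input. With Lars2 left out, the gene with most reads, Alb, took 7.08% ± 1.15 of input and 11.6% ± 3.46 of RPF reads (SD, n = 3). The 100 genes with most reads took 39.4% ± 1.31 of input and 53.7% ± 2.11 of RPF reads. With genes in 5 equal bins by geometric mean of input and RPF, those in the highest bin had a median TE of 0.57 and 62.9% of them were called above, against −0.20 and 10.8% in the lowest bin. The median SD between mice was 0.15 in the highest bin and 0.51 in the lowest.

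**Figure D1:**
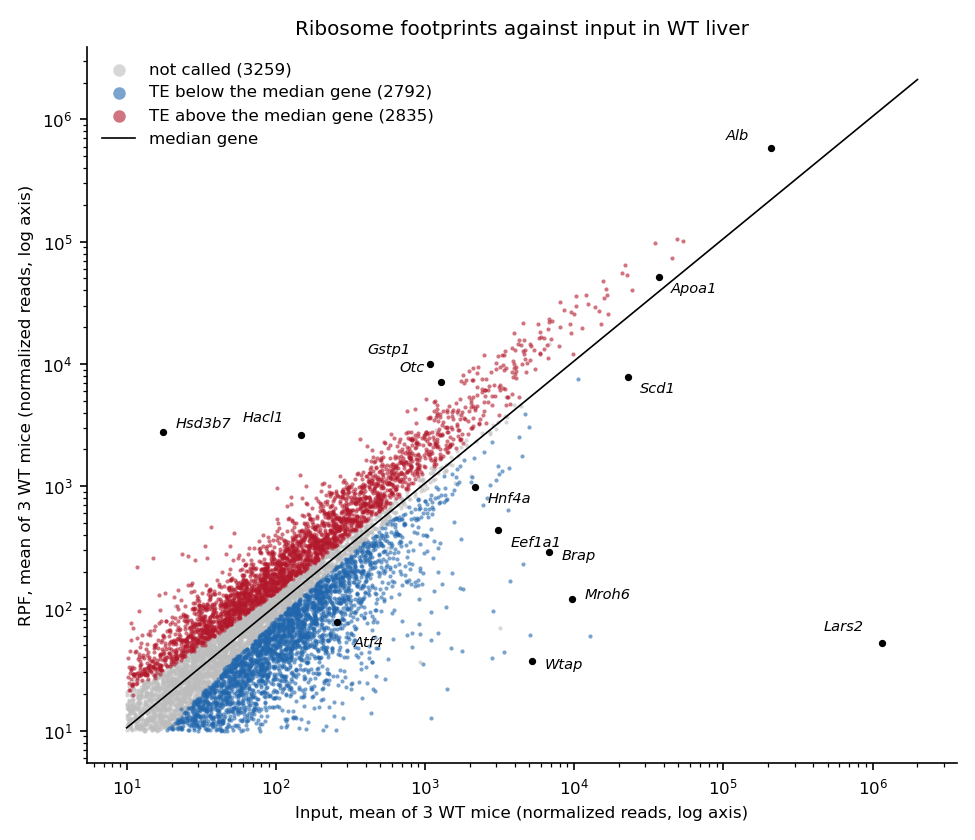
Normalized RPF reads (vertical, log axis) against normalized input reads (horizontal, log axis) for the 8886 members in WT liver, means of 3 mice. Genes called above the median gene (2835) and below it (2792) lie on either side of the line of the median gene, and Lars2 lies alone at the lower right.

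The sequences around the start codon of genes at both ends of the TE scale are shown first, since the start site is where initiation is decided. Each line gives 12 bases before and 12 after the codon from GENCODE transcript models on mm10, with the start codon and the base 3 before it in capitals. Otc, Apoh, Psmb2 and Alb stood above the median gene.
Otc (chrX:10252425-10252451, plus strand): agcaaaaagAagATGctgtctaatttg
Apoh (chr11:108395332-108395358, plus strand): gacgcatccGcaATGgtttccccggtg
Psmb2 (chr4:126677743-126677769, plus strand): cttcccggcAccATGgagtacctcatt
Alb (chr5:90460923-90460949, plus strand): gcctctggcAaaATGaagtgggtaacc
Atf4, Azin1, Slc25a23, Hnf4a and Brap stood below it.
Atf4 (chr15:80256287-80256313, plus strand): aagccccacAacATGaccgagatgagc
Azin1 (chr15:38501491-38501517, minus strand): aatacggctGagATGaaaggatttatt
Slc25a23 (chr17:57059659-57059685, minus strand): tgggcgggcGccATGcgggggggctca
Hnf4a (chr2:163547293-163547319, plus strand): gggtaggggAgaATGcgactctctaaa
Brap (chr5:121660755-121660781, plus strand): agcgcctgtCctATGagtgtgtcactg
Among these lines Brap alone lacks A or G at position −3, and genes of both ends carry either base. Zbtb20, also low and not printed, has C there, while Tmem37 at the high end and Atf5 and Tef at the low end have A or G. Over 7048 genes with unique and unshared sequence, the median TE was 0.08 for 3282 genes with A, −0.04 for 2851 with G, −0.21 for 594 with C and −0.16 for 321 with T. Calls above made up 34.6% of the A genes and 21.7% of the C genes, against 31.3% of all of them. Genes with G at position +4 had a median of 0.02 (3773 genes), against −0.06 for the others.

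Counts of lists are given beside the shares over all members, 31.9% called above and 31.4% below. In the highest bin by geometric mean of input and RPF these shares were 62.9% and 21.3%, and in the lowest 10.8% and 24.6%. The plasma proteins made by hepatocytes lay above the median gene almost throughout. Among albumin and plasma carriers 18 of 19 were called above and 1 below, with a median TE of 1.37 (1.49, 1.19 and 1.34 in the 3 mice), or 0.77 per length and 0.31 per exon length. Alb, the most abundant plasma protein, had 244533, 218469 and 167165 normalized reads in input and 804719, 536850 and 405249 in RPF. Its RPF value exceeded its input value in every mouse, and its log2 TE was 1.35 ± 0.08 (SE, n = 3; limma, adjusted p = 1.6e-07). Ttr, the thyroxine and retinol carrier, reached 1.40 ± 0.08 (limma, adjusted p = 4.3e-08) and Fetub, a fetuin protease inhibitor, 1.86 ± 0.08 (limma, adjusted p = 2.2e-16). The exception was Igfbp4, which binds insulin-like growth factors, at −0.84 ± 0.08 (limma, adjusted p = 4.7e-10). Per length Igfbp4 lay at 0.49, Fetub at 1.31 and Alb at 0.50, and per exon length Alb was not called (0.12; limma, adjusted p = 0.19).

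Apolipoproteins, the protein part of lipoprotein particles, were all called above (14 of 14, median 0.99). They spread from Apoa5 at 0.32 to Apoh, also called beta-2-glycoprotein I, at 2.10, or 1.3 per length. Apoh had 4080, 4244 and 3608 normalized reads in input and 18556, 18113 and 17511 in RPF. Those RPF values differ less between mice than the gap to input. Apob, the core protein of VLDL, lay at 0.63 ± 0.06 and Apoa1, that of HDL, at 0.41 ± 0.06 (SE, n = 3; limma, adjusted p = 2.4e-10 and 5.3e-07). These 2 turned to −0.33 and −0.21 per length. Of the coagulation and fibrinolysis genes 24 of 25 were above (median 1.21), with Hrg, a histidine-rich plasma glycoprotein, highest at 1.84, or 0.95 per length, and Proz, protein Z, lowest at −0.26, or 0.22 per length. Complement factors (22 above and 2 below of 26, median 0.90), acute phase and metallothionein genes (14 and 1 of 18, median 1.21) and secreted serpins (11 and 1 of 12, median 1.09) lay the same way. Each of these medians was lower with length taken into account. Per length they were 0.62 for coagulation, 0.23 for complement, 0.54 for the acute phase list and 0.63 for serpins, and per exon length 0.24, −0.02, 0.53 and 0.15. Unique and unshared sequence was held by 3 of the 12 serpins. Mbl1, a mannose-binding lectin, was highest of the complement list at 1.90, and Cfb, lowest at −0.88, shares 79.5% of its exon bases with another gene on its strand. In the major urinary proteins, which are near-identical copies, 8 of 14 were above and 4 below, and no member had at least 95% unique windows.

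**Figure D2:**
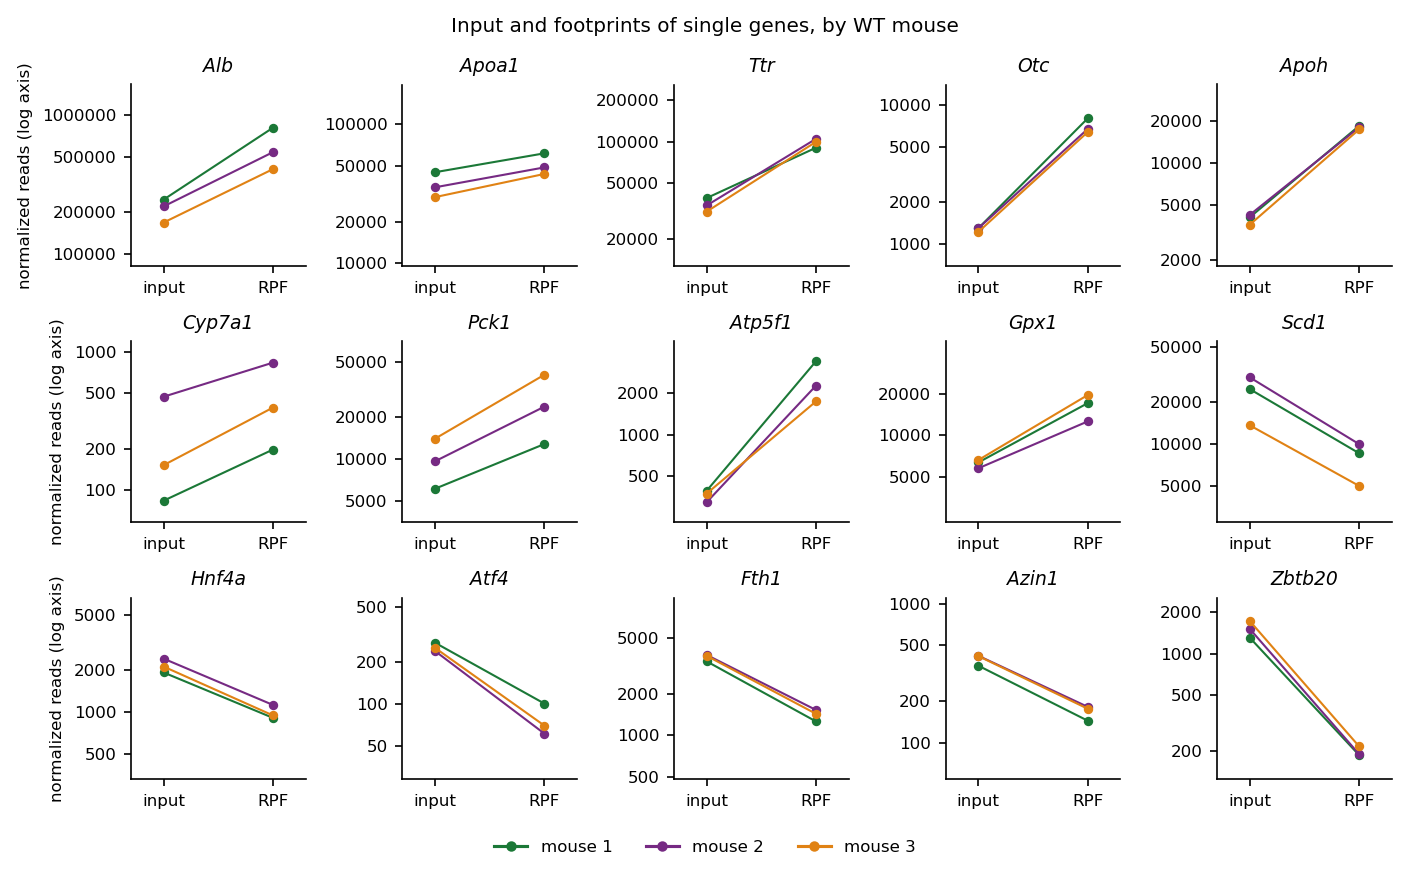
Normalized reads in input and RPF for 15 genes, 1 line per WT mouse, on log axes that differ between panels. Lines rise from input to RPF in Alb, Otc and Apoh in all 3 mice and fall in Scd1, Hnf4a, Atf4, Fth1, Azin1 and Zbtb20.

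Lists of hepatocyte metabolism also had most members above the median gene, with fatty acid synthesis split. In the urea cycle and amino acid breakdown 28 of 34 were above and 2 below (median 0.97). Otc, which makes citrulline in the urea cycle, had 1301, 1299 and 1223 normalized reads in input and 8031, 6733 and 6403 in RPF. Its log2 TE of 2.38 ± 0.08 (SE, n = 3; limma, adjusted p = 1.4e-18) was 5.19-fold above the median gene. Cps1, the entry step of the cycle, lay at 1.15 ± 0.06 and Arg1, its last step, at 0.96 ± 0.07 (limma, adjusted p = 3.0e-15 and 6.2e-12), and Cps1 at 0.45 per length and −0.13 per exon length. Ass1 had a value of −1.48, but 22.4% of its windows were unique. Ahcy lay lower still at −5.78 with RPF values of 0.871, 69.1 and 39.2, was not called (limma, adjusted p = 0.060) and had 2.84% unique windows. Without mouse 1 it was called, at −4.43.

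Fatty acid oxidation and ketogenesis had 26 genes above and 1 below of 30 (median 0.97). In fatty acid synthesis 7 of 22 were above and 8 below (median −0.19), beside 31.9% above and 31.4% below over all members. Scd1, the stearoyl-CoA desaturase, had 24855, 30189 and 13637 in input and 8584, 9983 and 4994 in RPF. Its input was lowest in mouse 3, as was its RPF value, and its log2 TE was −1.61 ± 0.06 (limma, adjusted p = 4.8e-17), or −0.43 per length. Scd1 had 62.4% unique windows. Fasn, the fatty acid synthase itself, lay at 1.02 ± 0.07 (limma, adjusted p = 2.2e-12), or −0.02 per exon length. Cholesterol synthesis and uptake had 12 above and 7 below of 24, with Ebp, a sterol isomerase, highest at 1.74.

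In gluconeogenesis and glycogen 19 of 21 were above and none below (median 0.76). Pck1, the rate-limiting enzyme of gluconeogenesis, had 6101, 9617 and 13992 normalized reads in input and 12796, 23784 and 40372 in RPF. Input and RPF were both lowest in mouse 1 and highest in mouse 3. The log2 TE was 1.22 ± 0.08 (SE, n = 3; limma, adjusted p = 4.7e-11). TCA cycle enzymes had 15 of 18 above and none below (median 0.80), with Fh1, the fumarate hydratase, at 1.46. Bile acid synthesis and transport had 15 above and 1 below of 17 (median 0.92, and 0.25 per exon length). Cyp7a1, the rate-limiting enzyme of bile acid synthesis, ranged from 84.4 to 473 in input (84.4, 473 and 152 by mouse) and from 197 to 833 in RPF (197, 833 and 395). Mouse 2 was highest and mouse 1 lowest in both assays, and log2 TE stayed at 1.05 ± 0.13 (limma, adjusted p = 1.2e-07). With input and RPF taken as unpaired groups, neither Pck1 nor Cyp7a1 was called (limma, adjusted p = 0.14 and 0.39).

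Glutathione S-transferases, which conjugate reactive compounds, had the highest median of the lists with at least 5 members tested, at 1.56, with 16 above and 1 below of 20. The other detoxification lists lay on the same side, UDP-glucuronosyltransferases with 12 above and none below of 14 (median 1.43), carboxylesterases all 13 above (median 1.33) and cytochromes P450 29 above and 2 below of 39 (median 0.84). Cyp2e1, which oxidizes ethanol, lay at 1.02 ± 0.07 and Cyp3a11, a broad drug oxidase, at 1.10 ± 0.07 (SE, n = 3; limma, adjusted p = 1.1e-12 and 2.2e-13). Gstp1 was highest of the transferases at 3.10 ± 0.09, with 28.7% unique windows. Unique and unshared sequence was held by 10 of the 20 glutathione S-transferases and 9 of the 39 cytochromes P450. It was held by only 1 of the 14 UDP-glucuronosyltransferases and 1 of the 13 carboxylesterases. The part of shared sequence in these counts was not tested. Per length Cyp2e1 was at 0.32 and the medians were 1.21, 0.93, 0.58 and 0.30 in the order given, and per exon length they were 1.31, 0.39, 0.34 and −0.02, with Cyp2e1 at −0.02.

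**Figure D3:**
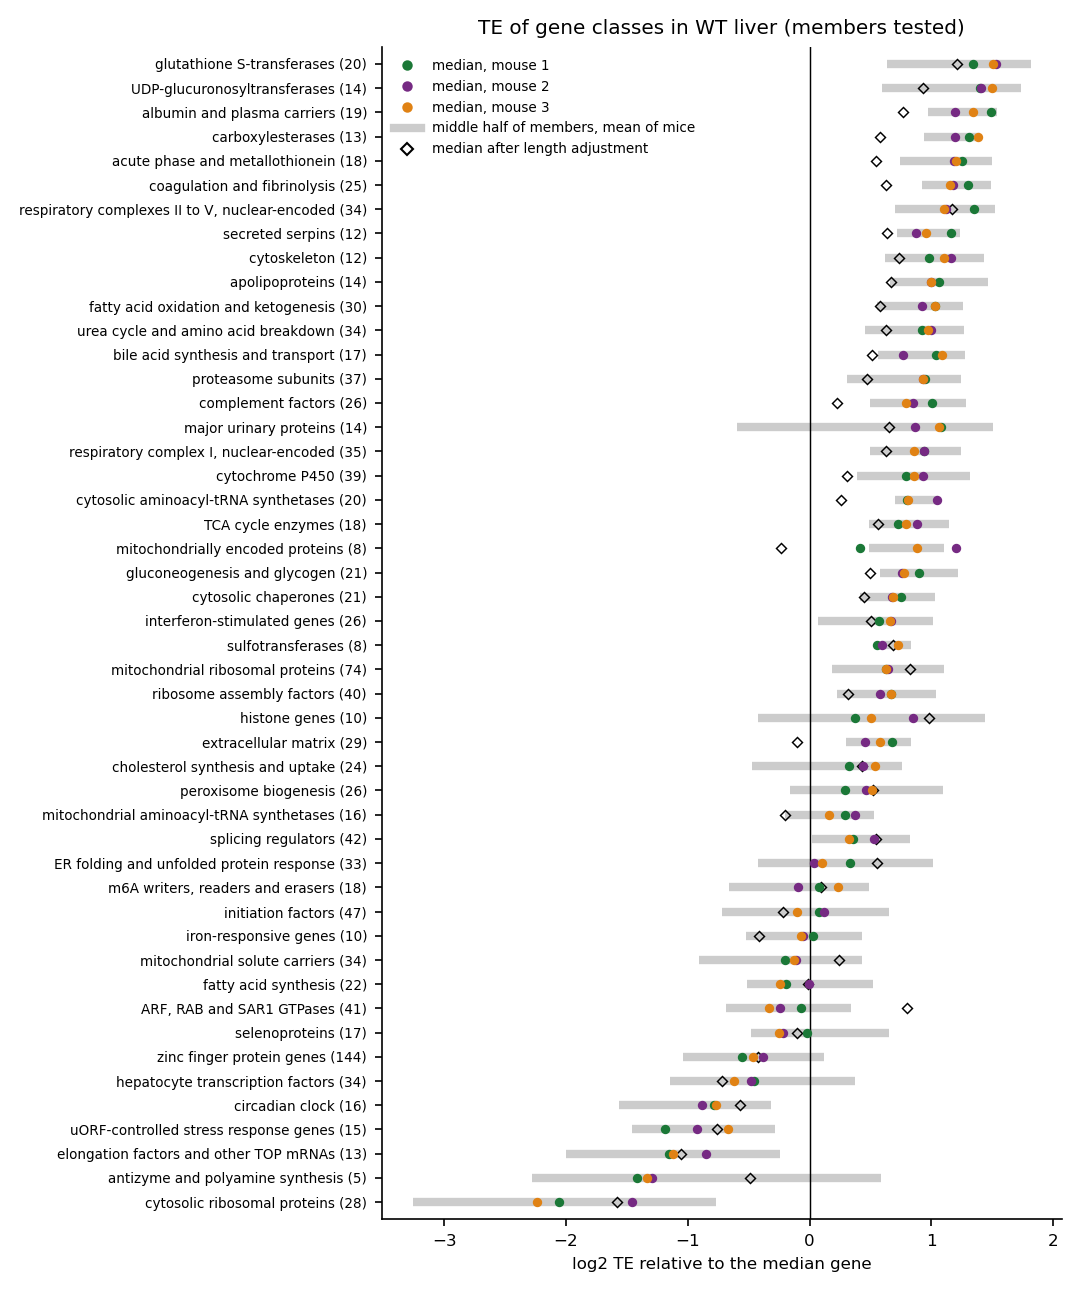
Median log2 TE of gene classes with at least 5 members tested, as 1 point per WT mouse, with a grey bar over the middle quartiles of members and a diamond for the median after length adjustment. The classes run from glutathione S-transferases at 1.56 to cytosolic ribosomal proteins at −1.80, and the points of the mice lie close together in most classes.

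The nuclear-encoded machinery of the mitochondrion lay above the median gene. Of complexes II to V 29 of 34 were above and 3 below (median 1.13), and of complex I 29 of 35 and 3 (median 0.85). Ndufc2, a complex I subunit, had a log2 TE of 2.53 ± 0.21 and Atp5f1, a subunit of the ATP synthase, 2.61 ± 0.14 (SE, n = 3; limma, adjusted p = 2.4e-05 and 9.0e-09). Atp5f1 had 38.6% unique windows. Among the 14 subunits of complexes II to V with unique and unshared sequence, all were above (median 1.45). Mitochondrial ribosomal proteins had 48 above and 8 below of 74 (median 0.61). Mitochondrial solute carriers had 9 above and 13 below of 34 (median −0.16, and 0.24 per length), beside 31.9% above and 31.4% below over all members. Slc25a23, an ATP-Mg/phosphate carrier, had 888, 851 and 834 normalized reads in input and 131, 183 and 146 in RPF, at −2.58 ± 0.12 (limma, adjusted p = 1.7e-15).

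The genes of mitochondrial DNA, translated by mitochondrial ribosomes, had a median TE of 0.42, 1.20 and 0.88 in mice 1, 2 and 3 over 8 genes, and 4 were called above and none below. mt-Nd1 had 3449, 3617 and 3333 normalized reads in input but 2684, 7883 and 5492 in RPF, so its input values lay together while its RPF value in mouse 1 was under that of the others. Its log2 TE was 0.41 ± 0.43 (SE, n = 3; limma, adjusted p = 0.51), and without mouse 1 it was called, at 0.85. mt-Co1, a cytochrome oxidase subunit, lay at 0.51 ± 0.06 (limma, adjusted p = 4.6e-08), or −0.49 per length. The median of the 8 genes per length was −0.24. Of these 8 genes 1 was unique and unshared, and the median share of unique windows was 82.1%.

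Proteasome subunits had 28 above and 2 below of 37 (median 0.91) and cytosolic chaperones 16 and 3 of 21 (median 0.73). Psmb2, a beta subunit of the proteasome core, had 128, 122 and 128 normalized reads in input and 670, 814 and 968 in RPF. Its log2 TE was 2.58 ± 0.13 (SE, n = 3; limma, adjusted p = 2.6e-15). In the list of endoplasmic reticulum folding and the unfolded protein response, calls were split at 15 above and 12 below of 33. Hspa5, the main chaperone of that compartment, lay at 1.06 ± 0.07 (limma, adjusted p = 8.8e-13) and Edem1, which sends misfolded glycoproteins to degradation, at −1.38 ± 0.10 (limma, adjusted p = 1.1e-11).

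Lists of the translation apparatus lay on different sides of the median gene. Cytosolic ribosomal proteins, whose mRNAs carry TOP tracts, had none of 28 called above and 26 below, and a median TE of −1.80 (−2.06, −1.46 and −2.24 in the 3 mice). The value table held 38 of these genes and 28 were members. Rps6 had no value and Rpl3 lay under the minimum, so the 28 are not the whole family. Rplp0, a stalk protein, had 400, 415 and 540 normalized reads in input and 68.8, 111 and 65.0 in RPF, at −2.57 ± 0.18 (SE, n = 3; limma, adjusted p = 1.7e-09). These genes have many processed pseudogenes, and only uniquely mapped reads were kept. None of the 28 had at least 95% unique windows. The 19 with under 25% had a median of −2.52 and the 9 with 25% to 95% a median of −0.80, so the value moves with uniqueness. Its part in the result was not tested. Elongation factors and other TOP mRNAs had 2 above and 8 below of 13 (median −1.06). The 3 of them with unique and unshared sequence had a median of −0.51, with 1 above and 2 below. Eef1a1, which brings aminoacyl-tRNA to the ribosome, lay at −2.93 with 10.4% unique windows, and Eef2, the translocase, at −1.46 with 69.0%. Per length they lay at −3.56 and −2.20, and neither was called without mouse 1 (limma, adjusted p = 0.18 and 0.29). Cytosolic aminoacyl-tRNA synthetases lay on the other side, with 18 above and none below of 20 (median 0.84), 17 of the 20 unique and unshared. Ribosome assembly factors had 23 above and 3 below of 40 (median 0.59). Initiation factors were split evenly, 16 above and 16 below of 47, beside 31.9% and 31.4% over all members. Eif4ebp2, which sequesters the cap-binding protein, had 1185, 1276 and 1208 in input and 47.9, 74.2 and 68.1 in RPF, at −4.36 ± 0.13 (limma, adjusted p = 2.5e-19) and −1.35 per length.

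**Figure D4:**
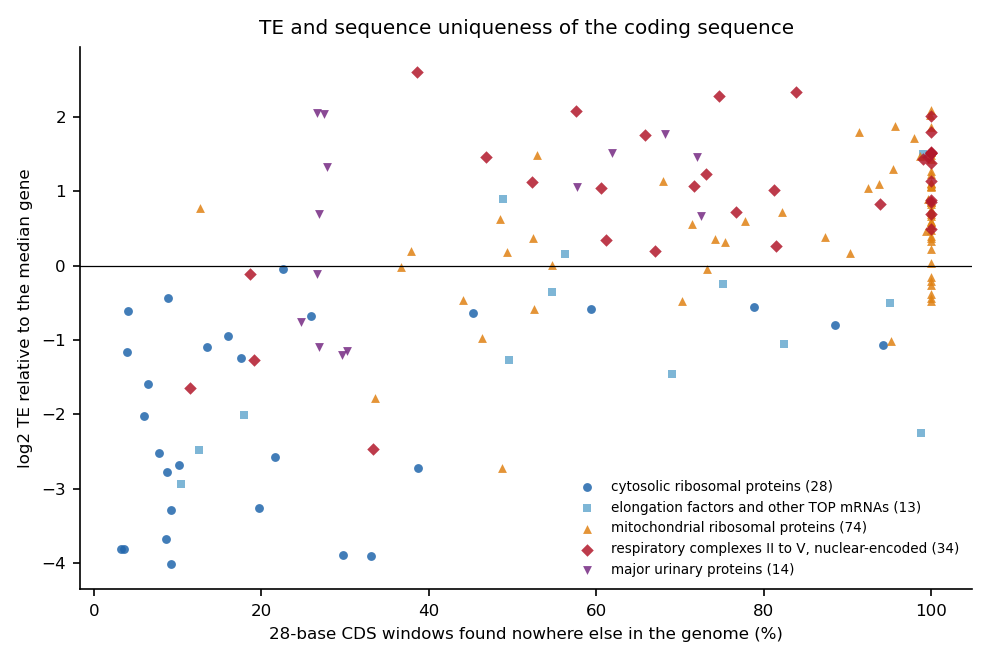
log2 TE of genes against the share of 28-base windows of their coding sequence found nowhere else in the genome, in percent, 1 point per gene for 5 gene classes. The ribosomal proteins all lie under 95% unique, and those under 25% have the lower values (median −2.52 against −0.80).

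Several lists of regulators had more genes below the median gene than above it. Of the genes listed as controlled by uORFs in the stress response 11 of 15 were below and 1 above (median −0.99; −1.19, −0.93 and −0.67 by mouse), all 15 with unique and unshared sequence, and the median per length was −0.76. Atf4, the effector of the integrated stress response, had 277, 241 and 254 normalized reads in input and 101, 61.4 and 70.1 in RPF. RPF lay under input in every mouse, with a log2 TE of −1.83 ± 0.15 (SE, n = 3; limma, adjusted p = 7.2e-11) and −2.12 per length. Atf5, a related factor, lay at −1.54 ± 0.12 (limma, adjusted p = 1.3e-11). Hspa13, a chaperone of the Hsp70 family, was the exception at 0.94 ± 0.11 (limma, adjusted p = 9.2e-08).

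Hepatocyte transcription factors had 9 above and 19 below of 34 (median −0.50), zinc finger protein genes 14 and 55 of 144 (median −0.44) and circadian clock genes 1 and 8 of 16 (median −0.61). Over all members 31.9% were above and 31.4% below. In the lowest bin by geometric mean of input and RPF 10.8% were above and 24.6% below, and in the next bin 21.5% and 35.8%. The part of level in the counts of these lists was not tested. Hnf4a, a nuclear receptor that defines hepatocytes, had 1930, 2428 and 2128 in input and 910, 1127 and 947 in RPF, at −1.20 ± 0.08 (SE, n = 3; limma, adjusted p = 2.6e-12), or −0.59 per length. Its TE had an SD of 0.03 between mice. Nr0b2, the bile acid-induced corepressor, lay at 1.3 ± 0.14 (limma, adjusted p = 9.2e-09), and per exon length it was not called (0.25; limma, adjusted p = 0.11). Zbtb20, a zinc finger repressor, lay at −3.01 ± 0.10 (limma, adjusted p = 3.1e-18) and at −0.42 per length. Per1, a clock repressor, had 5.23, 79.3 and 88.7 in RPF and was not called (limma, adjusted p = 0.25), while without mouse 1 it was called at −0.80.

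Ferritin stores iron, and its 5′ UTR carries the element that iron regulatory proteins bind. The loop motif CAGTGN, in capitals below, was searched on the transcript strand with A, C or T as N. It occurs in the 5′ UTR of 1463 of 8748 members (16.7%), so its presence alone marks no gene.
Fth1 (chr19:9982732-9982761, plus strand): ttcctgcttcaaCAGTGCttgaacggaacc
Ftl1 (chr7:45459778-45459807, minus strand): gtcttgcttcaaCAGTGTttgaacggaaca
Fth1, the heavy chain, had 3412, 3795 and 3740 normalized reads in input and 1260, 1524 and 1430 in RPF, at −1.47 ± 0.08 (SE, n = 3; limma, adjusted p = 2.0e-14), or −1.02 per length and −0.38 per exon length. Ftl1, the light chain, lay at −1.89 ± 0.09 (limma, adjusted p = 4.8e-15) with 10.7% unique windows. In the whole iron-responsive list 4 of 10 were above and 4 below. Polyamine synthesis is held by antizyme, whose mRNA needs a frameshift. Of the 5 genes tested in that list 2 were above and 3 below. Sat1, which acetylates polyamines, lay at 1.11 ± 0.15 (limma, adjusted p = 6.1e-07). Azin1, the antizyme inhibitor, lay at −1.35 ± 0.12 (limma, adjusted p = 5.8e-10), or −0.49 per length, and Oaz1, antizyme itself, at −3.55 with 13.6% unique windows. Selenoproteins, which read UGA as selenocysteine, had 7 above and 7 below of 17. Gpx1, a glutathione peroxidase, lay at 1.28 ± 0.07 (limma, adjusted p = 5.4e-13) and Selenop, the plasma carrier of selenium, at −0.59 ± 0.07 (limma, adjusted p = 1.4e-07).

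Markers of the other liver cells also lay above the median gene, 7 of 9 for Kupffer cells and macrophages, 7 of 8 for endothelium and 7 of 9 for stellate cells and fibroblasts, with 0, 0 and 1 below. Their medians of 0.84, 0.73 and 0.60 were 0.52, 0.21 and 0.31 per length, and 0.19, 0.028 and 0.41 per exon length. C1qa, a complement subunit made by macrophages, reached 1.68, or 0.60 per exon length, and Dcn, a matrix proteoglycan of fibroblasts, 1.59, or 2.47 per exon length. The extracellular matrix list had 16 above and 2 below of 29 (median 0.57, and −0.10 per length).

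Interferon-stimulated genes had 14 above and 4 below of 26 (median 0.73, and 0.11 per exon length), cytoskeleton genes 10 and 1 of 12 (median 1.04, and 0.35 per exon length), sulfotransferases 5 and 0 of 8 (median 0.64) and peroxisome biogenesis 14 and 3 of 26 (median 0.43). Splicing regulators had 20 above and 7 below of 42 (median 0.36, and 1.3 per exon length), and small GTPases of the ARF, RAB and SAR1 families 10 and 14 of 41 (median −0.21, and 0.80 per length). These counts stand beside 31.9% above and 31.4% below over all members. Of the 12 cytoskeleton genes 2 were unique and unshared. The m6A writers, readers and erasers, the enzymes and binders of the mark that Mettl5 also places, had 7 above and 7 below of 18, from Wtap to Mettl3, the catalytic writer, at 1.27 ± 0.24 (SE, n = 3; limma, adjusted p = 4.0e-05), or 0.49 per length and not called (limma, adjusted p = 0.073). Mitochondrial aminoacyl-tRNA synthetases had 6 above and 3 below of 16 with Lars2 among them, and histone genes 5 and 3 of 10. The markers of blood were above in 3 of 3 (median 2.73), of cholangiocytes in 1 of 2, and of lymphocytes and neutrophils in 1 of 2. The blood markers had a median of 19.3% unique windows. Only Alas2 among them was unique and unshared, at 0.47, or −0.33 per length.

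At the high end Hsd3b7, a bile acid enzyme, had 20.2, 23.5 and 9.18 normalized reads in input and 3028, 2379 and 2923 in RPF, at 7.22 ± 0.33 (SE, n = 3; limma, adjusted p = 5.0e-05). It shares 62.0% of its exon bases with another gene on its strand. Hacl1, a peroxisomal lyase, lay at 4.09 and shares 31.1% of its exon bases. Over 68 members sharing at least 25% the median was 0.94. Tmem37, a small membrane protein with unique windows and no exon shared on its strand, had 161, 139 and 134 in input and 1313, 1073 and 1310 in RPF, at 2.99 ± 0.11 (limma, adjusted p = 2.0e-17). At the low end Mroh6 had 337, 22.2 and 3.09 in RPF against 11345, 8763 and 8963 in input, so its value of −8.33 differed widely between mice (SE 1.66; limma, adjusted p = 0.048), and the call was lost without mouse 1, 2 or 3 (limma, adjusted p = 0.12, 0.24 and 0.17). Wtap, a subunit of the m6A writer, lay at −7.20 ± 0.17 with 53.0% unique windows, and Brap, a BRCA1-associated protein, had 6294, 6067 and 7929 in input and 330, 235 and 308 in RPF, at −4.62 ± 0.09 (limma, adjusted p = 1.3e-22).

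Across genes, TE went with the shape of the transcript. Spearman's rho with 3′ UTR length was −0.40 over 8878 members and −0.395 to −0.369 in the single mice. Among 7204 genes with unique and unshared sequence, the median TE went from 0.56 in the bin of 5 with the shortest 3′ UTRs (up to 367 bases) to −0.74 in the bin with the longest (2569 or more), and the share called above from 52.9% to 11.7%. With lengths taken into account the same bins had medians of −0.04 and 0.06, and rho was 0.08. Whether RPFs were counted over whole exons, as input was, or over coding sequence is not given in the sources used here, and the part of length in each gene's TE was not tested. The number of ATG triplets in the 5′ UTR, which bears on scanning, kept its trend under the adjustment by transcript and coding length. Genes with none had a median of 0.22 (3468 genes), with 1 −0.09, with 2 or 3 −0.34 and with 4 or more −0.50 (789 genes), and per length 0.18, −0.10, −0.32 and −0.43. Its rho with TE was −0.23, and −0.19 per length. That adjustment does not hold 5′ UTR length fixed, and ATG number was not separated from 5′ UTR length. 5′ UTR length had a rho of −0.23, and −0.10 per length, and coding length −0.15, and −0.49 per length. These are correlations across genes of the same libraries, which are not independent replicates.

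**Figure D5:**
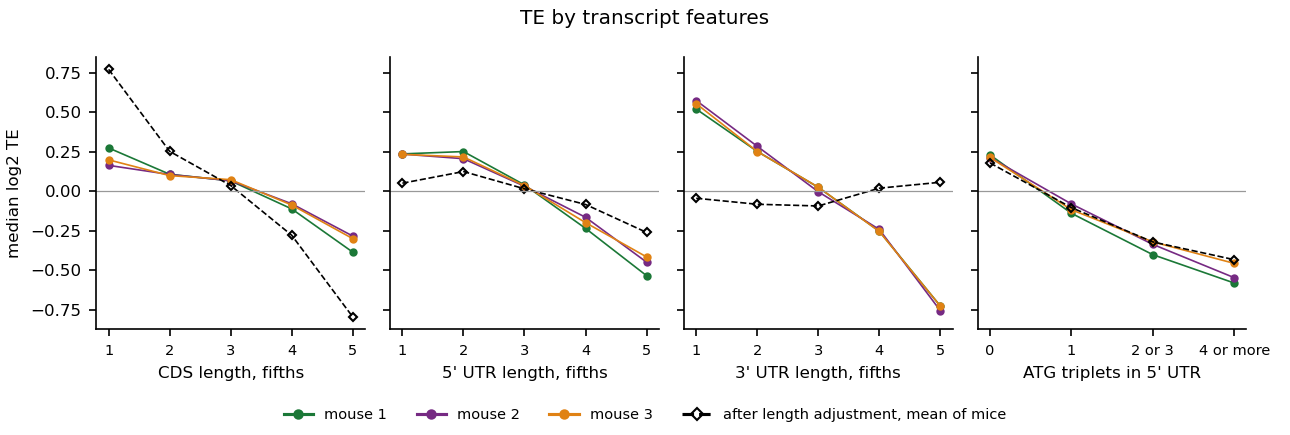
Median log2 TE by 5 equal bins of transcript features and by number of ATG triplets in the 5′ UTR, 1 line per WT mouse, with the length-adjusted median. The 3′ UTR panel falls from 0.56 to −0.74 and is flat after adjustment. The ATG panel falls from 0.22 to −0.50 and keeps its slope after adjustment, which does not hold 5′ UTR length fixed.

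The 3 KO livers, taken through the same fit on their own, gave a set of values beside those of WT, with no test between genotypes. Of 9007 genes tested there, 2708 (30.1%) were above and 2656 (29.5%) below. Of the genes called above in WT, 2815 were tested in KO and 2344 (83.3%) were called above, and of those called below, 2746 were tested and 2260 (82.3%) were called below, with none called the opposite way. Over 8675 genes tested in both, Spearman's rho of TE was 0.93. The class medians in KO were −2.08 for ribosomal proteins, 1.25 for albumin and plasma carriers, −0.64 for the uORF list and 0.97 for fatty acid oxidation. Otc lay at 2.16 in KO, Atf4 at −1.58, Hnf4a at −1.11 and Fth1 at −0.98. CDS GC content had a rho of −0.11 with TE in WT and 0.00 in KO. The genotype difference itself was not tested here.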

How the data were processed

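Livers of 3 WT and 3 KO littermates gave 12 libraries. Per the labels and the study's methods, adapters were removed by the authors (BBDuk), STAR 2.7.3a placed the reads on mm10, and uniquely placed input reads were counted by them with strand-specific featureCounts over exons (1.6.0 in the labels, 2.0.3 in the file header). RPFs of MNase digests were cleared of rRNA and counted by RiboToolkit, and the region counted is not given in the sources used here. The deposited signal values, called RPKM by the authors, are reads divided by 1 factor per library: whole reads were recovered in 100% of values within 0.01, and input equalled the deposited counts. Gene length was not used by the authors in these values. The deposited counts also cover noncoding RNA. No per-sample column was without a sample (0).

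TE was tested with limma 3.58.1 (R 4.3.3; trend and robust, two-sided, Benjamini-Hochberg over 8886 genes) within mouse, pseudocount 1. edgeR 4.0.16 and DESeq2 1.42.0 on the recovered reads were alternatives. Mouse numbers pair the libraries, since each mouse gave both: deviations from the group means correlated at 0.54 to 0.55 within a mouse and at −0.40 to −0.06 between mice. Deviations from a group mean cancel out over the mice, so negative values between mice follow from positive ones within. Only the values within a mouse bear on the pairing. On simulated data over 8886 genes, 80% of 2-fold and 95% of 4-fold changes were recovered. Unique windows of 28 bases and exon sharing on a strand came from the mm10 genome and its GENCODE annotation, and genes with at least 95% unique windows and under 5% shared exon bases are called unique and unshared. Genes were named as the 10 highest and 10 lowest called with means of at least 100, the highest and lowest of each list, and a set of anchors. The members and lists were chosen with earlier results of these data known. The histone list was mended after the files were read, since its pattern also took other genes. Counting error is included in the spread between mice. Some genes are not reported here.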

Additional observations from a re-analysis of the deposited data

Results flagged for a closer look

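The input libraries held much signal outside the genes of the TE table. The rRNA gene CT010467.1 had a mean of 5479210 counts over the 3 WT input libraries. The noncoding RNA Gm15564, which on a strand not recorded shares 52 bases with the 3′ UTR of Lars2, had a mean of 72436 counts. Both came to attention because the comparison of RPF with input does not use them, and neither has an RPF value to set beside its counts here.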

How the results depend on the processing

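Input and RPF were also taken as unpaired groups (no replicate block), which gave 2544 genes above and 2538 below. Leaving out each mouse in turn gave 2419 to 2829 above, 2400 to 2745 below, 1258 to 1313 at least 2-fold above, 1612 to 1655 at least 2-fold below and a spread of 1.11 to 1.13. A minimum mean of 50, which tests 5024 genes, gave 1790 above, 1772 below, 596 at least 2-fold above, 774 at least 2-fold below, a spread of 0.99, a median of −0.056 for initiation factors, and rho of −0.19 with CDS length, 0.23 with coding share, −0.081 with GC and −0.21 with upstream ATGs. In every other setting each of these counts stayed within 1.5 times its value, and outside the length settings no called gene was called the opposite way.

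The spread was 1.04 with a pseudocount of 5. With no filter it was 1.21, with rho of −0.12 for CDS length, −0.38 for 3′ UTR length and −0.13 for GC, and a median of 0.024 for iron-responsive genes, and 0.023 without centring. The m6A median ran from −0.094 without mouse 3 to 0.26 without mouse 2.

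Per exon length the spread was 1.25, rho was −0.46 with CDS length, −0.12 with 5′ UTR length, −0.038 with 3′ UTR length, −0.26 with coding share, −0.21 with GC and −0.18 with upstream ATGs. Medians turned to −0.82 (mitochondrially encoded), 0.21 (mitochondrial solute carriers), −0.020 (P450), −0.020 (complement), 0.56 (GTPases), −0.26 (extracellular matrix), −0.042 (m6A) and −0.33 (hepatocyte markers), and genes to 0.11 (Igfbp4), 0.37 (Proz), −0.073 (Apoa5), −0.53 (Apoa1), −1.07 (mt-Co1), −0.91 (Apob), −0.020 (Cyp2e1), −0.022 (Fasn) and −0.13 (Cps1). In this setting 175 genes called above and 233 called below were called the opposite way.

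Settings added after the data were seen were these. Per length of 1 transcript the spread was 1.16, and rho was −0.49, −0.10, 0.079, −0.38, −0.17 and −0.19 in the same order. Medians turned to −0.22 (initiation factors), −0.20 (mitochondrial synthetases), −0.24 (mitochondrially encoded), 0.24 (solute carriers), 0.80 (GTPases) and −0.10 (extracellular matrix), and genes to 0.49 (Igfbp4), 0.22 (Proz), −0.21 (Apoa1), −0.49 (mt-Co1) and −0.33 (Apob). Among unique and unshared genes the spread was 1.05, rho −0.18 with CDS length, −0.43 with 3′ UTR length and −0.13 with GC, and medians turned to 0.33 (selenoproteins) and 0.23 (iron-responsive). In those genes per length, rho was −0.53, −0.11, 0.069, −0.39, −0.18 and −0.20, medians were −0.23 (initiation factors), −0.18 (mitochondrial synthetases), −0.57 (mitochondrially encoded), 0.29 (solute carriers), 0.29 (fatty acid synthesis), 0.37 (selenoproteins), 0.89 (GTPases), −0.076 (extracellular matrix), −0.041 (m6A) and −0.30 (blood markers), and genes were 0.51 (Igfbp4), 0.25 (Proz), −0.18 (Apoa1) and −0.31 (Apob). The length settings divide by lengths and the others drop genes by construction, and no further cause was tested.

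Depth limits the lowest genes: the median gene had 36 to 50 input reads and 66 to 111 RPF reads in a WT library.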
